A study of Homo sapiens with 24 samples.

Results

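The members of this gene set are 54 genes of the lysosome and of autophagy, 34 of the first and 20 of the second. They were chosen by name, as a list of lysosomal hydrolases, lysosomal membrane proteins, subunits of the proton pump, 2 transcription factors of the TFEB family and genes of the autophagy machinery. A mean of at least 10 was asked for in a table. It was reached by all 54 members in the table of RPE1 5/3 12/3, which lists 14510 genes, and by 53 in each of the others. Those list 15148 genes for HCT116 5/4, 15610 for HCT116* 8/3 c7 and 14292 for RPE1* 21/3. The member that fell short was MAP1LC3A, which leaves all 34 lysosome genes and 19 autophagy genes among the 11939 genes with such a mean in all 4 tables.

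The mRNA of 4 aneuploid lines and of their parental lines was sequenced from TruSeq libraries. HCT116 is a near-diploid colon carcinoma line, and RPE1 is a retinal pigment epithelium line immortalised with telomerase (hTERT). HCT116 5/4 carries 4 copies of chromosome 5 and was compared with HCT116. HCT116* 8/3 c7 carries 3 copies of chromosome 8 and was compared with HCT116*, where the asterisk stands for stable expression of histone H2B tagged with GFP. RPE1 5/3 12/3 carries 3 copies of chromosome 5 and 3 of chromosome 12 and was compared with RPE1. RPE1* 21/3 carries 3 copies of chromosome 21 and was compared with RPE1*, which also expresses H2B-GFP. Each line and each parental line has 3 libraries, so that a table covers 6. HCT116 5/4 came from another laboratory, the other aneuploid lines were made by microcell-mediated chromosome transfer, c7 is 1 clone, and the extra chromosome 12 of RPE1 5/3 12/3 arose spontaneously. The study lists HCT116 under the laboratory that gave HCT116 5/4, but its methods name a cell repository, which is also given for HCT116*. The HCT116 tables may thus rest on different stocks. No treatment is named, and all lines grew in the same medium with serum.

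Lysosomes are acidic organelles in which proteases, glycosidases, sulfatases and lipases break down material that arrives by endocytosis or by autophagy. A proton pump of the vacuolar type keeps their lumen acidic, and membrane proteins such as LAMP1 and LAMP2 line them. In autophagy, the ULK1 complex and the lipid kinase complex of BECN1 start a membrane, conjugation enzymes attach ATG8 proteins to it, and cargo receptors such as SQSTM1 link cargo to these ATG8 proteins. TFEB and TFE3 are basic helix-loop-helix factors that bind E-box elements near many lysosome genes, and autophagy is among the processes known to be activated in aneuploid cells.

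Each table gives 1 mean normalized count per gene, taken over the 3 libraries of a line and the 3 of its parental line together. A mean of this kind cannot show how a line differs from its parental line, it was used without an error, and no test was possible. The values below are therefore descriptions: a line and its parental line are always pooled, the depth behind a value cannot be read from the tables, and the 2 tables of the same cells are the only repeat of a cell line. The cell line and any batch of culture or sequencing cannot be told apart, and neither can fewer expressing cells and less RNA per cell. To set tables side by side, the means were divided by 1 factor per table, the median ratio over the 11939 shared genes, and are called scaled means. A member was counted as higher in one cell line when both of its tables lay above both tables of the other and the nearest of them were at least 2-fold apart. Between the 2 tables of the same cells the median absolute difference over the members was 0.146 on the log2 scale.

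The tables differed in the genes that define the cells, given here as deposited means. EPCAM, an epithelial adhesion molecule, stood at 4192 and 5683 in the HCT116 tables and at 4.77 in the table of RPE1 5/3 12/3, and was not listed for RPE1* 21/3. CDH1 and CDX2 were listed in the HCT116 tables only, as was KRT20, which was low at 40.7 and 51.0, while VIL1 and CDX1 were listed in none. The keratins KRT8 and KRT18 were abundant in all tables. KRT8 stood at 63210 and 59668 in the HCT116 tables and at 19618 and 16721 in the RPE1 tables. KRT18 stood at 28098 and 20665 against 12481 and 13422. Of the 7 markers listed for pigment epithelium, MITF was at 1439 and 1124 in the RPE1 tables against 67.4 and 62.0 in the HCT116 tables, and the others but OTX2 were low, with PMEL at 17.8 and 14.8, RPE65 at 10.4 and 4.58, RLBP1 at 32.4 and 4.77 and BEST1 at 42.7 and 41.3, and TYR was not listed. RPE65 was higher in the HCT116 tables, at 287 and 194. OTX2 stood at 715 and 419 in the RPE1 tables and was not listed for HCT116, and vimentin (VIM) reached 175391 and 110087 against 481 and 106. The RPE1 tables thus carried MITF, OTX2 and VIM, while RPE65, RLBP1, BEST1, PMEL and TYR were at or under 42.7 or not listed.

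Lysosome genes were higher in the RPE1 tables far more often than the other way round. Of 34 lysosome members 17 were at least 2-fold higher in both RPE1 tables, beside 10.9% of all shared genes, and 0 were at least 2-fold higher in both HCT116 tables, beside 9.52% of all shared genes. Of 19 autophagy members 3 were higher in the RPE1 tables (NBR1, OPTN and UVRAG) and 0 in the HCT116 tables. Their share in the RPE1 direction was 15.8%, near the 10.9% of all shared genes, against 50% of the lysosome members. The median difference in scaled mean, RPE1 minus HCT116, was 1.18 on the log2 scale for lysosome members, 0.37 for autophagy members and -0.0034 for all shared genes. Without a threshold on the size, 29 lysosome members lay higher in both RPE1 tables, 4 lay higher in both HCT116 tables (CTSZ, GAA, GLA and ASAH1) and SGSH overlapped. For autophagy these counts were 12, 3 (GABARAPL1, ATG10 and ATG12) and 4. Of all 11939 shared genes, 4772 lay higher in both RPE1 tables, 4733 lay higher in both HCT116 tables and 2434 overlapped. The members nearest to the threshold were UVRAG at 2.02-fold and NBR1 at 2.001-fold just inside, and CTSL1 at 1.998-fold and GLB1 at 1.99-fold just outside.

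How many members passed depended on how the tables were scaled. Scaled on the total of the shared genes, 12 lysosome members and 1 autophagy member passed on the RPE1 side, beside 7.68% of all shared genes. CTSA, LIPA, NPC2, TFEB, TPP1, NBR1 and UVRAG no longer passed. Under the same scaling CTSZ, GAA and GLA passed on the HCT116 side, at 2.14-fold, 2.09-fold and 2.01-fold. As deposited, with no scaling, 11 lysosome members and 1 autophagy member passed on the RPE1 side, beside 7.99% of all shared genes. CTSB was lost as well, and GAA passed on the HCT116 side at 2.15-fold. The share of all genes on the HCT116 side was not computed under these other scalings. Both settings moved the median of all shared genes to the HCT116 side, to -0.32 and -0.26 on the log2 scale. Relative to that median, lysosome members stayed 1.18 and autophagy members 0.38 above all genes under each scaling, since a factor per table moves all genes alike.

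**Figure D1:**
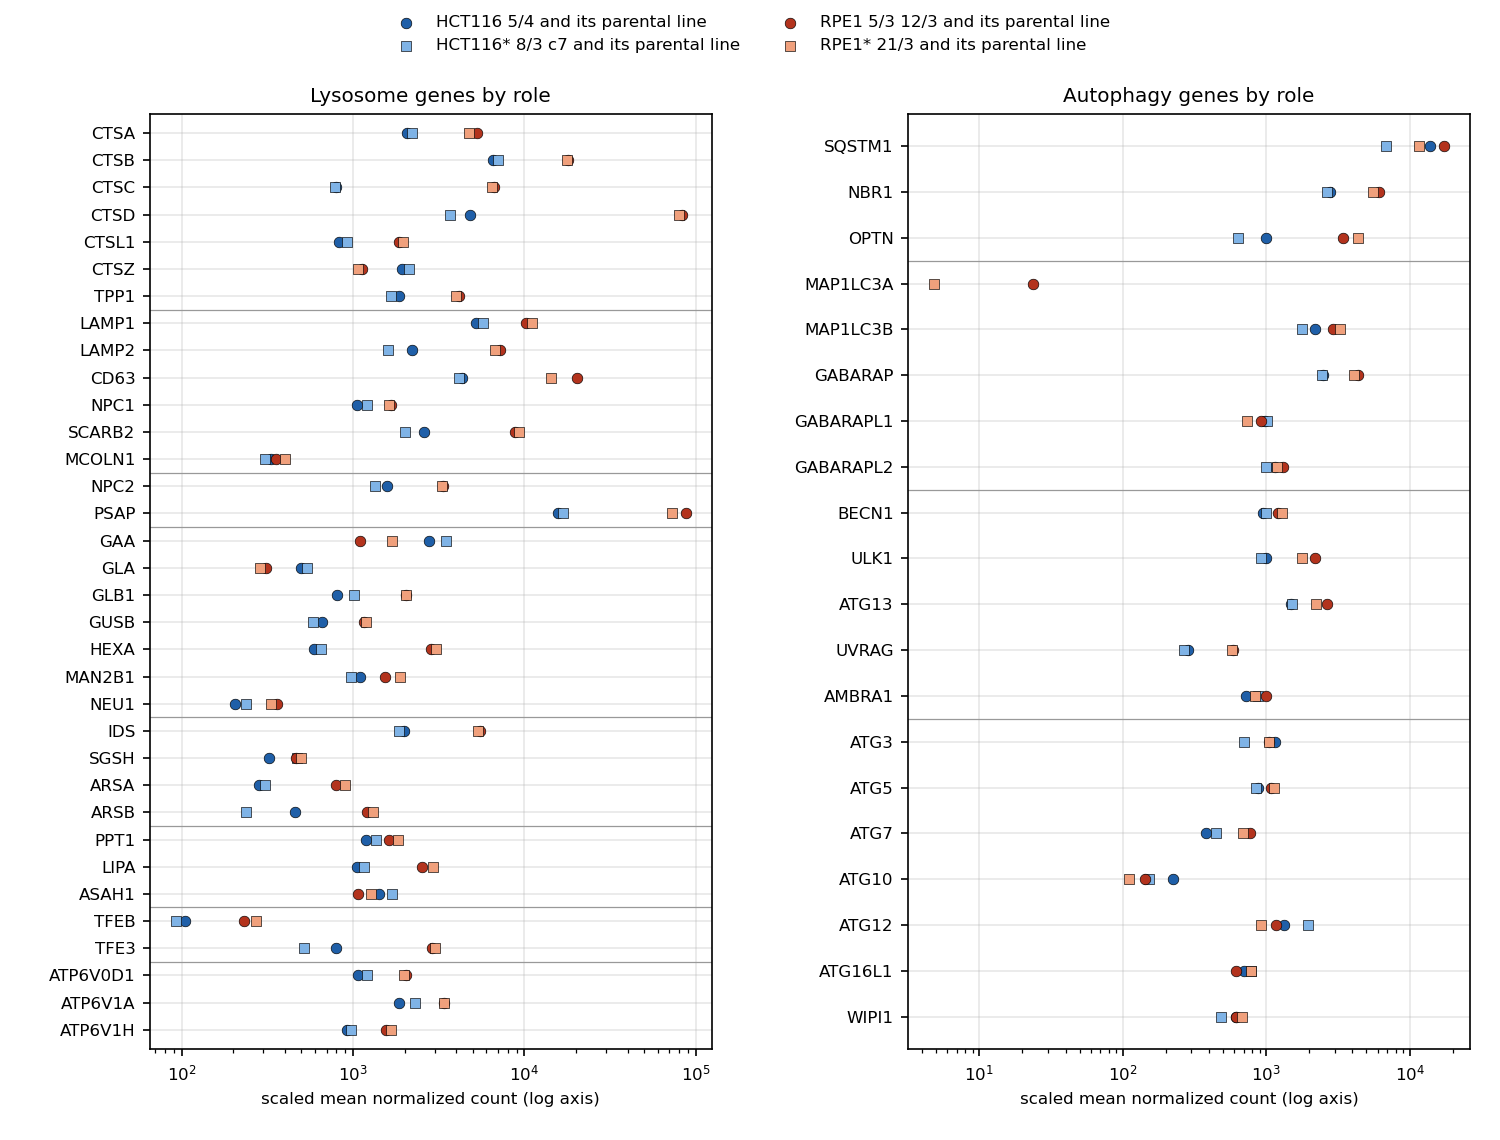
Scaled mean normalized count (log axis) of the 34 lysosome and 20 autophagy members, grouped by role between grey lines, with 1 point for each of the 4 tables, each the mean of 6 libraries. CTSD and PSAP reach the highest scaled means, in the RPE1 tables. MAP1LC3A has points for the RPE1 tables only, because the HCT116 tables do not list it.

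**Figure D2:**
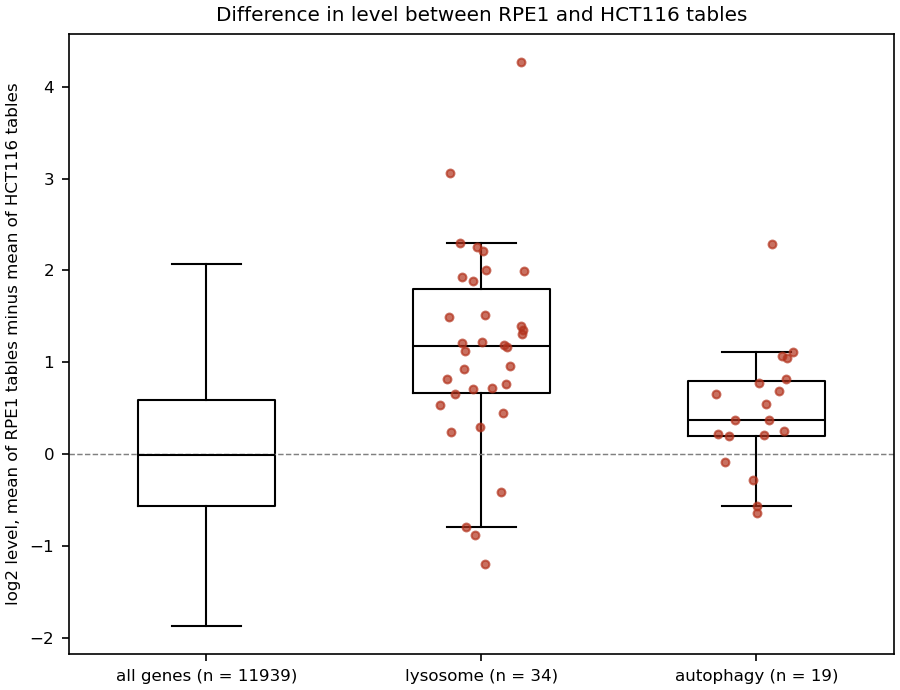
Difference of the log2 scaled mean, RPE1 tables minus HCT116 tables, for all 11939 shared genes, 34 lysosome members and 19 autophagy members. Boxes span the quartiles with the median as a line, whiskers reach the 5th and 95th percentiles, and points are single members. The lysosome median lies at 1.18, the autophagy median at 0.37 and that of all genes at -0.0034.

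The transcription factors are described first. TFEB (chr6:41651716-41703997) had scaled means of 104 and 92.0 in the tables of HCT116 5/4 and HCT116* 8/3 c7, and of 231 in that of RPE1 5/3 12/3 and 270 in that of RPE1* 21/3. TFE3 (chrX:48886237-48900936) had scaled means of 791 and 517, and of 2904 and 3021, in the same order, which is kept for all values below. Both genes were higher in both RPE1 tables without overlap, TFEB by 2.21-fold and TFE3 by 3.67-fold between the nearest tables, and TFEB was past 2-fold under the median scaling only. MITF, another factor of this family and a regulator of pigment cells, is no member and was added after its values had been seen. Its scaled means were 62.7, 55.7, 1420 and 1362, the widest gap of the family at 21.7-fold. Per length of transcript, TFE3 was the most abundant of the family in every table, with 80.6%, 75.5%, 69.1% and 69.7% of the summed level. TFEB made up 15.0% and 18.9% in the HCT116 tables and 7.74% and 8.80% in the RPE1 tables, and MITF 4.38% and 5.58% against 23.2% and 21.5%. The order of TFEB and MITF thus differed between the cell lines, while that of TFE3 did not.

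Factors of the TFEB family recognise the E-box CACGTG, and the form GTCACGTG followed by AC is known as the core of the CLEAR element of lysosome gene promoters. Promoters of 43 of the 54 members, from 250 bases before the start to 50 bases from it, were read from RefSeq (GRCh38.p14). The others were CTSB, LAMP2, HEXA, PSAP, SGSH, ASAH1, ARSA, ATP6V1A, ATP6V1H, MAP1LC3A and UVRAG. Where a gene has several promoters in the table, a match in any of them was counted. On either strand CACGTG was found in 10 of 43 members, which was 9 of 25 lysosome members and 1 of 18 autophagy members, beside 8.77% of 27305 genes with a promoter and 12.8% of the 9332 of them that the 4 tables share. GTCACGTG, which contains it, was found in 8 members, 7 of lysosome and 1 of autophagy, beside 2.93% of all genes and 5.55% of the shared genes. The full form, followed by AC, was found in 2 members, GAA and MCOLN1, beside 0.421% and 0.975%. TCACGTGA and TCACGTGAC, which overlap the other forms, were each found in 6 members, beside 1.18% and 1.01% of all genes. These 5 forms were searched after the levels had been seen, and a match is not evidence of binding.

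The 8 members with GTCACGTG or its reverse complement are shown because they include the lysosome genes with the widest and with the opposite difference between the cell lines. Each window is 30 bases around 1 match, the full form where there is one, on the gene's own strand, written from 5′ to 3′, with the match in capitals.
CTSD, chr11:1763956-1763985, minus strand: ccggccgcgccCACGTGACcggtccgggtg
CTSA, chr20:45891280-45891309, plus strand: ggaggaagactGTCACGTGgcgccggagtt
ARSB, chr5:78986100-78986129, minus strand: aattcaataagCACGTGACtaaaggatttt
LAMP1, chr13:113297034-113297063, plus strand: gaccaggccggGTCACGTGggtccagggtc
ATP6V0D1, chr16:67481200-67481229, minus strand: gcccccttatgGTCACGTGaggcgcttgcg
MCOLN1, chr19:7522598-7522627, plus strand: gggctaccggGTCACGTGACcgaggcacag
GAA, chr17:80101493-80101522, plus strand: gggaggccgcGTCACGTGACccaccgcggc
ATG3, chr3:112561964-112561993, minus strand: ccctttctcacGTCACGTGccgggagagtc

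The match shown began 47 bases before the start in CTSD, 44 in CTSA, 160 in ARSB, 194 in LAMP1, 61 in ATP6V0D1, 16 in MCOLN1, 78 in GAA and 20 in ATG3. Other matches in the same promoters are not shown, since CACGTG occurred 6 times in the promoter of LAMP1, 2 times each in those of CTSA, MCOLN1, GAA and ATG3, and 1 time each in those of CTSD, ATP6V0D1 and ARSB (in 1 of its 2 promoters). CTSD, CTSA and ARSB were past the 2-fold gap and the other 5 were not, and GAA, with the full form, was higher in the HCT116 tables. Among members with a promoter in the table, CACGTG was present in 4 of 14 past the gap and in 6 of the other 29, and GTCACGTG in 3 and 5 of them. No relation of motif and level was tested. Among the 1016 shared genes with a promoter that were past the gap on the RPE1 side, CACGTG was present in 10.4% and GTCACGTG in 4.63%.

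**Figure D3:**
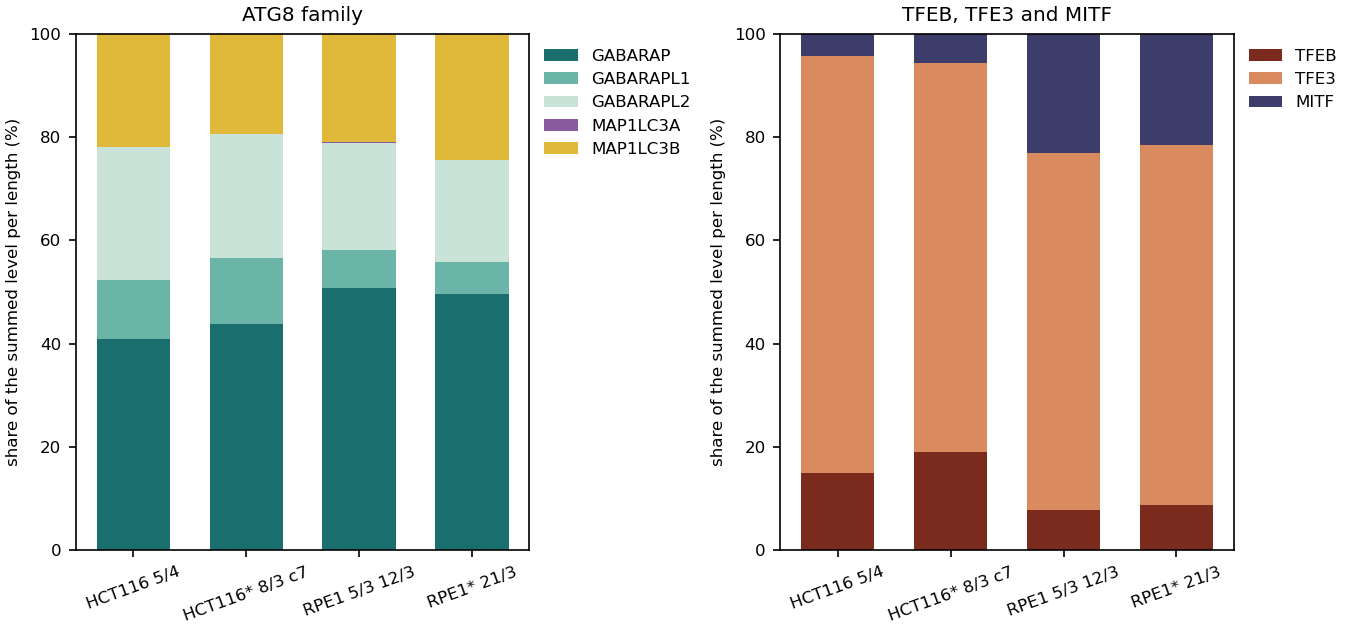
Share of each gene in the summed level per length (%), left for the ATG8 family and right for TFEB, TFE3 and MITF, with 1 bar for each table, which pools a line with its parental line. GABARAP takes 40.9% to 50.7% of the ATG8 family, and MITF takes 4.38% to 5.58% of its family in the HCT116 tables and 21.5% to 23.2% in the RPE1 tables.

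The 2 widest gaps among the lysosome members were those of the proteases CTSD and CTSC, while the median log2 difference of the proteases, 1.22, was close to that of all lysosome members. Of 7 proteases 5 were at least 2-fold higher in the RPE1 tables (CTSA, CTSB, CTSC, CTSD and TPP1), beside 10.9% of all shared genes. Counts by role, here and below, rest on few genes each, and differences between roles were not tested. CTSD (chr11:1773982-1785803), the main aspartic protease of the lysosome, had scaled means of 4802 and 3704 in the HCT116 tables and of 83175 and 79595 in the RPE1 tables. The lowest RPE1 table was 16.6-fold above the highest HCT116 table, the widest gap among the members. In GENCODE 55.4% of the canonical CTSD transcript is shared with a second gene model on the same strand, and how such reads were counted was not tested. The same holds for 90.7% of the canonical transcript of IDS and 52.4% of that of GABARAP, both described below. Smaller overlaps on the same strand were 22.1% and 13.7% for MAN2B1, 12.9% for HEXA, 8.11% for MCOLN1 and 5.39% for GLB1.

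CTSC (chr11:87998237-88092852), which activates serine proteases by removing dipeptides, had scaled means of 795 and 782 in the HCT116 tables and of 6607 and 6510 in the RPE1 tables. The gap was 8.19-fold, and the tables of the same cells lay within 1.02-fold of each other. CTSB, an abundant cysteine protease, stood at 6527 and 7035 against 17973 and 17802, a gap of 2.53-fold. CTSA, which protects other hydrolases and trims peptides, stood at 2078 and 2211 against 5260 and 4760, and TPP1, which removes tripeptides, at 1856 and 1665 against 4142 and 3988. Both passed 2-fold with 2.15-fold under the median scaling and failed under the other scalings. CTSL1, the gene now named CTSL, was at 832 and 923 against 1845 and 1962. CTSZ, a carboxypeptidase, ran the other way, with 1939 and 2107 in the HCT116 tables against 1130 and 1066 in the RPE1 tables, 1.72-fold apart. The proteases therefore did not share 1 direction. CTSA shares 10.7% of its canonical transcript with the opposite-strand gene PLTP, and without strand in the counting these reads cannot be told apart.

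Of 7 carbohydrate hydrolases 1 was past the gap, beside 10.9% of all shared genes. It was HEXA, the alpha subunit of the enzyme that degrades GM2 ganglioside. HEXA (chr15:72633265-72668761) had scaled means of 588 and 650 in the HCT116 tables and of 2858 and 3053 in the RPE1 tables, 4.40-fold apart. GLB1, a beta-galactosidase, had 804 and 1018 against 2048 and 2024, just short of the threshold, and GUSB, MAN2B1 and NEU1 were 1.39-fold to 1.76-fold higher in the RPE1 tables. GAA (chr17:78075332-78093680), the glycogen-degrading alpha-glucosidase, had 2775 and 3509 in the HCT116 tables against 1101 and 1681 in the RPE1 tables, 1.65-fold apart. GLA, an alpha-galactosidase, had 500 and 536 against 311 and 286. GAA and GLA were thus the lysosomal glycosidases with higher means in HCT116, and in GAA the 2 RPE1 tables themselves differed by 1.53-fold.

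Sulfatases, which remove sulfate from glycosaminoglycans and sulfatides, passed in 3 of 4 cases, beside 10.9% of all shared genes. IDS stood at 1991 and 1852 in the HCT116 tables and at 5514 and 5341 in the RPE1 tables, and ARSA at 281 and 307 against 792 and 892. ARSB had 458 and 239 against 1209 and 1314, a gap of 2.64-fold with a wide difference between the HCT116 tables. SGSH had 322 and 469 against 463 and 495 and overlapped, with HCT116* 8/3 c7 above RPE1 5/3 12/3, and its difference changed sign when the tables were scaled on the total. The 3 sulfatases past the gap kept it under each scaling.

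The carriers of lipids in the lysosome lumen both passed, beside 10.9% of all shared genes. PSAP (chr10:73576055-73611008), the precursor of the saposins that present sphingolipids to their hydrolases, had scaled means of 15688 and 16918 in the HCT116 tables and of 87998 and 72541 in the RPE1 tables. The nearest tables were 4.29-fold apart. NPC2, which hands cholesterol to the membrane protein NPC1, had 1577 and 1344 against 3338 and 3288, 2.09-fold apart, and passed under the median scaling only. Of the 3 lipid enzymes LIPA, the acid lipase of cholesteryl esters, had 1047 and 1156 against 2538 and 2945. PPT1, which removes palmitate from proteins, was 1.20-fold higher in the RPE1 tables, and the acid ceramidase ASAH1 was 1.11-fold higher in the HCT116 tables. The gaps of the 5 lipid genes thus ran from 4.29-fold on the RPE1 side to 1.11-fold on the HCT116 side.

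Among 6 membrane proteins 3 were past the gap, beside 10.9% of all shared genes, and all 6 lay higher in both RPE1 tables. CD63 (chr12:56119107-56123491), a tetraspanin of late endosomes, had scaled means of 4339 and 4146 in the HCT116 tables and of 20297 and 14276 in the RPE1 tables. SCARB2, the receptor that carries beta-glucocerebrosidase to the lysosome, had 2582 and 2006 against 8851 and 9280. LAMP2 had 2221 and 1599 against 7210 and 6745, so that the gaps of the 3 were 3.29-fold, 3.43-fold and 3.04-fold. LAMP1, the other main glycoprotein of the membrane, had 5234 and 5747 against 10253 and 11125, a gap of 1.78-fold. NPC1 followed with 1.33-fold and the calcium channel MCOLN1 with 1.06-fold, and MCOLN1 changed sign under the other scalings.

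The 3 members of the proton pump stayed short of the threshold, and further subunits are counted below. ATP6V0D1, ATP6V1A and ATP6V1H were 1.64-fold, 1.48-fold and 1.60-fold higher in the RPE1 tables. Of these 3 members 0 passed, beside 10.9% of all shared genes. Their log2 differences lay between 0.72 and 0.82, below the lysosome median of 1.18.

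Of 3 cargo receptors 2 passed, OPTN and NBR1, beside 10.9% of all shared genes. OPTN (chr10:13141449-13180308), a receptor for ubiquitinated cargo and damaged mitochondria, had scaled means of 992 and 638 in the HCT116 tables and of 3419 and 4406 in the RPE1 tables. The gap was 3.45-fold, the widest among the autophagy members, and it held under each scaling. NBR1 had 2786 and 2659 against 6169 and 5575, and passed by 2.001-fold under the median scaling only. SQSTM1 (chr5:179233398-179265078), the receptor also called p62, had 13815 and 6842 in the HCT116 tables and 17519 and 11569 in the RPE1 tables. The cell lines overlapped for SQSTM1, because HCT116 5/4 lay above RPE1* 21/3. In GENCODE 21.5% of its canonical transcript lies opposite to MRNIP.

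The ATG8 family stayed close together between the cell lines. GABARAP had scaled means of 2485 and 2458 in the HCT116 tables and of 4371 and 4068 in the RPE1 tables, 1.64-fold apart. MAP1LC3B had 2176 and 1773 against 2929 and 3265, GABARAPL2 had 1157 and 998 against 1312 and 1186, and GABARAPL1 had 983 and 1013 against 915 and 733. GABARAPL1 was the only one of these 4 that was higher in the HCT116 tables, and GABARAPL2 changed sign under the other scalings. MAP1LC3A was not listed in the HCT116 tables and had scaled means of 23.8 and 4.82 in the RPE1 tables, so no difference was computed for it. Per length, GABARAP was the most abundant ATG8 gene in each table, with 40.9%, 43.8%, 50.7% and 49.6% of the family, and GABARAPL1 the least abundant of the 4 with 11.3%, 12.7%, 7.43% and 6.26%. MAP1LC3B held 22.0%, 19.4%, 20.9% and 24.5% and GABARAPL2 25.8%, 24.1%, 20.6% and 19.6%, so that their order turned between the HCT116 and the RPE1 tables. Without division by length it did not turn, and MAP1LC3B, at 32.0%, 28.4%, 30.7% and 35.3%, was above GABARAPL2 in each table, and GABARAPL2 was below GABARAPL1 in that of HCT116* 8/3 c7, at 15.99% against 16.23%. The near-identical gene MAP1LC3B2 was listed at 3.29% to 4.46% of the mean of MAP1LC3B, and reads of the pair are uncertain.

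Of 5 initiation genes 1 was past the gap, beside 10.9% of all shared genes. UVRAG, a partner of BECN1 in the lipid kinase complex, had scaled means of 285 and 268 in the HCT116 tables and of 588 and 574 in the RPE1 tables, and passed under the median scaling only. ULK1, the kinase that starts autophagy, had 994 and 919 against 2204 and 1784, 1.79-fold apart, and its partner ATG13 was 1.47-fold apart. BECN1 was 1.22-fold higher in the RPE1 tables, and AMBRA1, a regulator of the BECN1 complex, overlapped and changed sign under the other scalings. Of the 7 genes of conjugation and lipid binding (ATG3, ATG5, ATG7, ATG10, ATG12, ATG16L1 and WIPI1) 0 passed, beside 10.9% of all shared genes. Their median log2 difference was 0.21, and ATG3 and WIPI1 changed sign under the other scalings. ATG7, the E1-like enzyme of both conjugation systems, had the widest gap of them at 1.52-fold, and ATG12 and ATG10 lay higher in the HCT116 tables by 1.15-fold and 1.07-fold. BECN1 and ATG7 share 37.7% and 29.9% of their canonical transcripts with the opposite-strand genes CNTD1 and VGLL4.

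Levels of different genes were compared per length, as the mean normalized count per base of the canonical transcript in parts per 1000000 of a table (ppm). The median lysosome member had 58.0 and 58.8 ppm in the HCT116 tables and 86.6 and 92.5 in the RPE1 tables, while the median of all genes lay between 20.8 and 22.5. The median autophagy member had 45.6, 47.5, 52.0 and 45.4 ppm in the same order of tables, over 19 members, or 20 with MAP1LC3A in the table of RPE1 5/3 12/3. By this length it did not separate the cell lines, but by coding length it was 55.3, 44.4, 60.5 and 67.8, with both RPE1 tables above both HCT116 tables. By the longest transcript it was 54.5, 43.8, 49.7 and 52.1, and the cell lines overlapped. The 34 lysosome members summed to 0.399% and 0.391% of the HCT116 tables and to 1.48% and 1.35% of the RPE1 tables. Without CTSD and PSAP the sums were 0.288% and 0.285% against 0.643% and 0.587%. The autophagy members summed to 0.186%, 0.139%, 0.219% and 0.193%. Lysosome members thus had 2.14 and 2.81 times the summed level of autophagy members in the HCT116 tables and 6.76 and 6.99 times in the RPE1 tables. These sums cover more lysosome than autophagy members. The ratio of the medians was smaller, at 1.27 and 1.24 in the HCT116 tables and 1.67 and 2.04 in the RPE1 tables.

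Over the 53 members with a mean of at least 10 in all tables, the order per length was led by PSAP, CTSD, CD63, SQSTM1 and CTSB, with ATG10, TFEB, UVRAG, NEU1 and ATG7 at its end. In the HCT116 tables PSAP was highest, at 783 and 818 ppm, and in the RPE1 tables CTSD was highest, at 4678 and 4515 against 3701 and 3077 for PSAP. CTSD alone made up 8.04% and 6.13% of the summed lysosome level in the HCT116 tables and 31.6% and 33.5% in the RPE1 tables. ATG10, an E2-like enzyme, was the lowest of the 53 on average, with 10.2, 6.71, 5.46 and 4.26 ppm. TFEB had 6.13, 5.24, 11.4 and 13.5, and in the HCT116 tables it was lower than ATG10.

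Members on gained chromosomes were compared between the 2 tables of the same cells, where line, parental line and H2B-GFP differ together and cannot be told apart. In the HCT116 pair 5 of 53 members differed by at least 1.5-fold, beside 11.6% of all shared genes, and in the RPE1 pair 2 of 53, beside 7.82%. This threshold was set after the values had been seen. The HCT116 members were SQSTM1, ARSB, ATG3, OPTN and TFE3, all higher in the table of HCT116 5/4. Those of RPE1 were SQSTM1, higher in the table of RPE1 5/3 12/3, and GAA, higher in that of RPE1* 21/3.

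ARSB, SQSTM1, ATG10 and ATG12 lie on chromosome 5. In the table of HCT116 5/4, over that of HCT116* 8/3 c7, ARSB was at 1.92, SQSTM1 at 2.02 and ATG10 at 1.47, beside a median of 1.34 over 509 genes of chromosome 5 and of 0.987 over genes on no gained chromosome. ATG12, which is conjugated to ATG5, went the other way at 0.686, lower than nearly all genes of the chromosome, of which 3.14% had a smaller ratio. In the table of RPE1 5/3 12/3, over that of RPE1* 21/3, SQSTM1 was at 1.51, ATG10 at 1.29, ATG12 at 1.27 and ARSB at 0.920, beside a median of 1.21 over chromosome 5. SQSTM1 and ATG10 were thus above the median of chromosome 5 in both pairs, while ARSB and ATG12 each stood above 1 in 1 pair and below it in the other.

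On chromosome 12, CD63 was at 1.42, GABARAPL1 at 1.25 and ULK1 at 1.24 in the RPE1 pair, beside a median of 1.21 over 621 genes. On chromosome 8, in the table of HCT116* 8/3 c7 over that of HCT116 5/4, CTSB was at 1.08, ASAH1 at 1.19 and ATP6V1H at 1.05, beside a median of 1.11 over 388 genes. No member lies on chromosome 21. The ratios of chromosome 12 and 8 members stayed within 1.5-fold. Because each mean pools a line with its parental line, a ratio of means holds less than the full effect of an added chromosome in the line itself.

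**Figure D4:**
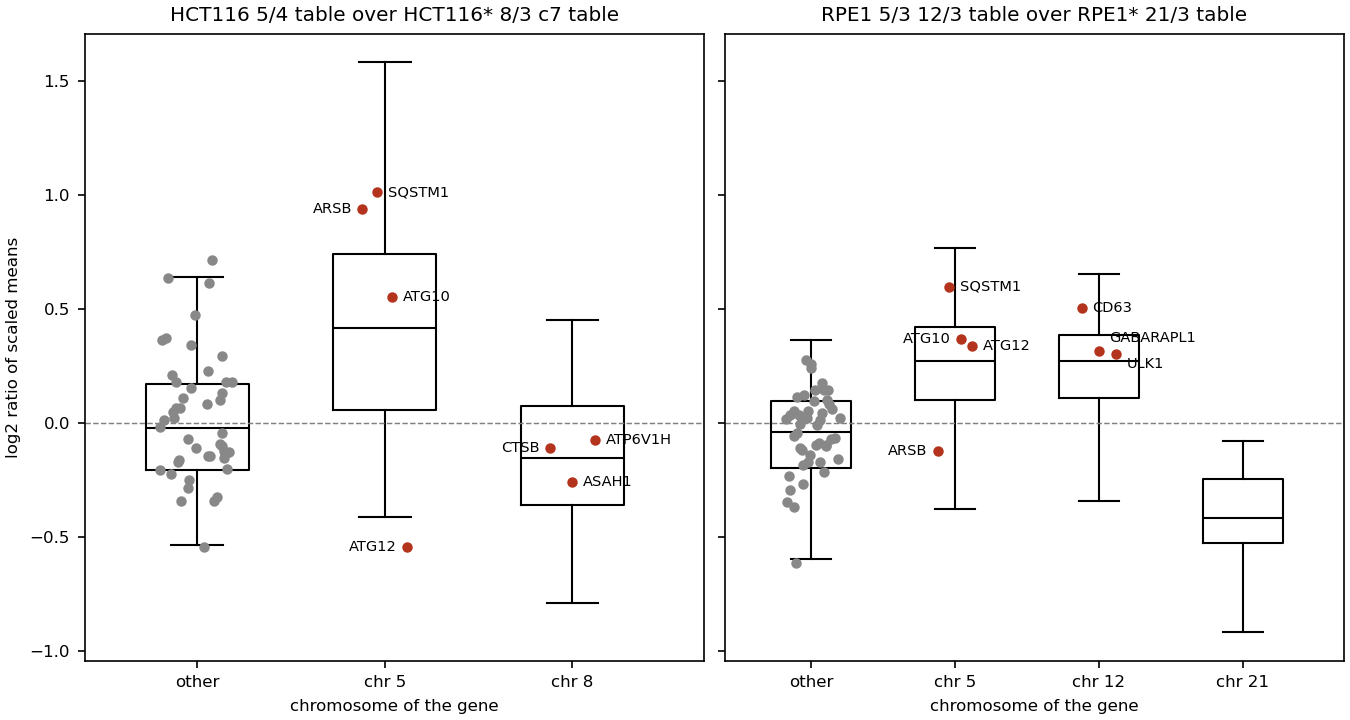
Log2 ratio of scaled means between the 2 tables of the same cells, by chromosome of the gene, left for HCT116 and right for RPE1. Boxes give all shared genes (quartiles, median, whiskers at the 5th and 95th percentiles), red points are members on a gained chromosome and grey points all other members. SQSTM1 lies above the chromosome 5 median in both panels. The extra chromosome 8 and 21 belong to the denominator, so their medians lie below 0.

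Other genes of the pathways, listed with earlier results of these data known, were counted in the same way. Of 24 further lysosome genes that the tables share, 10 were at least 2-fold higher in the RPE1 tables (10.9% of all shared genes) and 2 in the HCT116 tables (9.52% of all shared genes), LGMN and LAPTM4B. The widest gaps on the RPE1 side were those of MITF, SMPD1, CTSK and CTSO. MITF, a transcription factor also used above as a marker of the cells, is among the 10 and was added after its values had been seen. SMPD1, the acid sphingomyelinase, had scaled means of 135 and 120 in the HCT116 tables and of 2420 and 2736 in the RPE1 tables, and CTSK, a collagen-degrading cathepsin, 61.6 and 35.2 against 1928 and 803. LAPTM4B, a membrane protein of late endosomes on chromosome 8, had 6626 and 9146 against 1878 and 1463. Of 13 further subunits of the proton pump 1 passed, ATP6V1D, and of 21 further autophagy genes 3 passed, ATG2B, BNIP3 and BNIP3L, all on the RPE1 side. These shares of 7.69% and 14.3% lie near the 10.9% of all shared genes. Without a threshold, 8 of the 13 further pump subunits lay higher in both RPE1 tables, 1 in both HCT116 tables (ATP6V1C1) and 4 overlapped.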

How the data were processed

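Deposited tables of RNA-seq results were used, 1 for each of the 4 aneuploid lines with its parental line. Per the labels and the study's methods, the authors trimmed reads with cutadapt, mapped them to hg19 with TopHat2 (2.0.10) (1 reported location for each read), assigned them to RefSeq exons per gene with featureCounts (1.4.3, no strand setting named) and compared groups with DESeq2 (version not given in the sources used here). From these tables only the gene name and the mean were used, a signal that the authors made by averaging size-factor normalized counts of 6 libraries. The remaining columns hold the authors' own comparison (log2 fold change, standard error, statistic, p-value and adjusted p-value) and were left out, so no line was compared with its parental line and the planned edgeR fit was not possible. The deposited standard errors belong to that comparison, so the means are given without an error. The labels name a planned number of reads per library, but the depth reached cannot be read from the tables.

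The 54 members, the pathway lists and the thresholds were chosen with earlier results of these data known, and roles were assigned after the files had been read. Means were divided by the median ratio over the 11939 genes whose mean reached 10 in each table. Values were given, by rule, for members past the 2-fold gap, the 5 highest and 5 lowest per length, those on gained chromosomes, the ATG8 family, TFEB, TFE3 and those under a mean of 10, and the other members named were chosen after their values had been seen. Positions and lengths came from GENCODE v44lift37 (GRCh37, Ensembl canonical transcript, a length chosen after the files had been read). By symbol or a RefSeq synonym, 94.6% to 95.1% of listed genes were placed. Tables were read with Python 3.11.15 and pandas 2.3.3. The gap rule was run on simulated tables with planted differences larger than the gap and little noise. That run does not bear on members near the gap or on the choice of scaling. Alternatives were other scalings, gaps, filters and lengths, members on gained chromosomes left out, and, chosen after seeing the data, tables left out in turn and lines with or without H2B-GFP alone.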

Additional observations from a re-analysis of the deposited data

How the results depend on the processing

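For counts, a setting was taken as a change when it moved the count by over 1.5 times, and for medians when it moved them by over 0.146 (log2). Lysosome members higher in the RPE1 tables numbered 11 with no scaling and 4 at a 4-fold gap, against 17. Lysosome members higher in the HCT116 tables numbered 3 when scaled on the total or at a 1.5-fold gap, and 1 with no scaling, without the table of HCT116 5/4 or of RPE1* 21/3, and within lines with or without H2B-GFP, against 0. Autophagy members higher in the RPE1 tables numbered 1 when scaled on the total and with no scaling, 6 at 1.5-fold, 0 at 4-fold and 5 within lines without H2B-GFP, against 3, and 1 was higher in HCT116 within lines with H2B-GFP. The share of all genes on the RPE1 side was 18.9% at 1.5-fold, 4.15% at 4-fold and 16.5% within lines with H2B-GFP. On the HCT116 side that share was computed for the main setting only, at 9.52%. The HCT116 counts of the other settings thus have no share to be set beside.

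The median log2 difference was 0.86 (total) and 0.92 (no scaling) for lysosome members, and for autophagy members 0.056, 0.12, 0.57 without the table of HCT116 5/4 and 0.55 within lines with H2B-GFP. For all genes it was -0.32 and -0.26. By coding length, the median autophagy level was 55.3 ppm for HCT116 5/4, 67.8 for RPE1* 21/3, 60.5 for RPE1 5/3 12/3 and 44.4 for HCT116* 8/3 c7, so that the cell lines separated. By the longest transcript, the autophagy median was 54.5 for HCT116 5/4 and 52.1 for RPE1* 21/3. It was 43.8 for HCT116* 8/3 c7 and 49.7 for RPE1 5/3 12/3, not counted as changes, so that the cell lines overlapped. The lysosome median by this length was 106 for RPE1* 21/3, 97.9 for RPE1 5/3 12/3 and 48.4 for HCT116* 8/3 c7. Without members on chromosomes 5 and 12 the autophagy median of RPE1 5/3 12/3 was 66.6. The other 80 recomputed values of these results moved by less, and the cause of each change was not tested beyond what the setting itself removes. No paired analysis was possible because the tables give no values of single libraries, and for the same reason the planned fits without a replicate, with DESeq2 and without a filter on counts were not run.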
